A study of Mus musculus with 82 samples.

Results

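A set of 10 genes of simple epithelia were followed in the accessible chromatin of mouse embryonic fibroblasts under reprogramming: Krt7, Krt8, Krt18, Krt19, Epcam, Spint1, Spint2, St14, Ap1m2 and Dsp. They are 10 of the 21883 protein-coding genes of the RefSeq annotation used, and were chosen by name. A listed ATAC-seq peak was counted for a gene when it overlapped the gene. It was also counted when its centre lay within 100 kb of a gene end and that end was the nearest of any protein-coding gene. The lists of the 4 conditions held 87 such peaks, which merged into 30 regions out of 55274 in the series. Krt7 had no peak in any list, as had 4903 of the 21883 coding genes, so 9 of the 10 genes are represented.

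The cells were OG2-MEFs, fibroblasts of a strain with an Oct4-GFP reporter, at passage 2 when infected with retroviral Oct4, Sox2, Klf4 and c-Myc (OSKM). One arm also received RNase H1(D209N), called D209N below. This protein has a substitution in the catalytic site of the enzyme that cuts RNA in RNA:DNA hybrids, the core of R-loops. The other arm received OSKM with Flag and is read as the control that the design text mentions. Each arm was taken at day 7 and at day 3, with 2 ATAC-seq libraries per condition, 8 of the 82 samples of the series. Both arms carry the same reprogramming factors, and cells were not sorted, so that a missing peak may mean fewer open cells or less opening per cell. These cannot be told apart. The authors deposited 1 list of intervals per condition without scores or read counts. Every peak name carries rep1, and whether the second library of a condition entered its list is not given in the sources used here. No value below therefore has a replicate error, no test between conditions could be made, and read depth is unknown.

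Fibroblasts that are reprogrammed pass through a mesenchymal-to-epithelial transition, in which they take up epithelial adhesion and filament proteins. Keratins form filaments as pairs of a type I and a type II chain. Krt8 and Krt7 are type II chains and Krt18 and Krt19 are type I chains of single-layered epithelia, and Krt8 with Krt18 is the first keratin pair of the early embryo. Epcam is a surface adhesion protein of epithelia and of pluripotent cells. St14 encodes matriptase, a membrane serine protease, and Spint1 and Spint2 encode the Kunitz-type inhibitors that restrain it. Ap1m2 is a subunit of the epithelial clathrin adaptor that sorts proteins to the basolateral surface, and Dsp encodes desmoplakin, which ties keratin filaments to desmosomes.

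The promoters of Spint1 and Ap1m2 are shown because their start-site peak, within 1 kb of the start, differed between lists. At Ap1m2 a region of all 4 lists had its edge 1123 bp from the start in D209N at day 3. Those of Krt8, Epcam and Spint2 follow as the first in the gene order above with one in all 4. Dsp also had one in all 4 but came later in that order, and its promoter is not shown. No listed peak touched the 250 bases shown for Ap1m2, Krt8 and Epcam. Each line gives the 250 bases before the annotated start in RefSeq build GRCm38.p6, read 5′ to 3′ on the gene's strand. They span chr2:119237110-119237359 (plus strand), chr9:21312334-21312583 (minus), chr15:102004343-102004592 (minus), chr17:87635729-87635978 (plus) and chr7:29281978-29282227 (minus). Capitals mark matches on either strand to the GC box GGGCGG, the KLF box CCACCC or the E-box CACCTG that ZEB and Snail repressors are known to bind.
Spint1: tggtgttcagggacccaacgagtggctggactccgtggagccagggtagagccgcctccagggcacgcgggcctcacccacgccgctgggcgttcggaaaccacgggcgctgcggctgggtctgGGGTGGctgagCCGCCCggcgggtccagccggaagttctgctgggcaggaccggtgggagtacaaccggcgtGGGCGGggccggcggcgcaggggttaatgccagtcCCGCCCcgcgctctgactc
Ap1m2: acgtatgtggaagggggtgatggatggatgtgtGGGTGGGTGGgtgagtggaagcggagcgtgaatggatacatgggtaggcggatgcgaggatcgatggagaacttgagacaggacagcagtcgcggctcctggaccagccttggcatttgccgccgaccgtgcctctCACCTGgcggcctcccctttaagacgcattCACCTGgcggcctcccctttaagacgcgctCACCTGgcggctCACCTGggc
Krt8: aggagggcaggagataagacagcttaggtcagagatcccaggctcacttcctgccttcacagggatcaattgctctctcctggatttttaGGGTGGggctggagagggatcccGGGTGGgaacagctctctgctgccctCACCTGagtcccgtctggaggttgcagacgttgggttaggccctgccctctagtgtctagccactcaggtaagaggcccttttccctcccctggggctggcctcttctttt
Epcam: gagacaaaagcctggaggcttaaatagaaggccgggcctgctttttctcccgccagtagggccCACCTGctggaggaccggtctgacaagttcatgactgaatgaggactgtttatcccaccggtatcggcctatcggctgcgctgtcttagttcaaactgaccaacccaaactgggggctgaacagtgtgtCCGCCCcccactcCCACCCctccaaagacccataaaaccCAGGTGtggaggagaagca
Spint2: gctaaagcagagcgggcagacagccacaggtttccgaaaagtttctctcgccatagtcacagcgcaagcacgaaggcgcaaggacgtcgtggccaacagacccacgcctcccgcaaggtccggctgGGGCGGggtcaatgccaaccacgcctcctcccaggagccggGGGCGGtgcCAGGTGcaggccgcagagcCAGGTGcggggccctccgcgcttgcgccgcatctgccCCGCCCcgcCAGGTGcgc
Of the 10 genes, 8 had a promoter sequence in the table. St14 and Krt19 had none.

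The E-box CACCTG stood in 6 of the 8 promoters (Krt7, Krt8, Krt18, Epcam, Spint2 and Ap1m2), while 16.5% of 17485 coding-gene promoters of the same length held it. Ap1m2 had 4 copies, a number reached by 0.04% of promoters. The copies at positions -81, -51 and -21 from the start lay 30 bases apart. Those at -81 and -51 each open a nearly identical stretch of 30 bases, and the copy at -21 follows directly. These copies thus lie in a repeat and cannot be counted as independent. Spint2 had 3 copies, as 0.217% of promoters had or exceeded, and Epcam had 2, which 1.95% of promoters reached. The GC box was found in 5 of the 8 (Krt7, Epcam, Spint1, Spint2 and Dsp) and in 42.7% of all promoters, and the KLF box in 4 of the 8 and in 29.6%. None of the 8 held the AP-1 site TGANTCA (6.22% of all), the Grhl site AACNGGTT (1.72%), the Sox site CATTGTT (2.97%), the Oct site ATTTGCAT (1.61%), the Tead site GGAATG (11.6%) or the TATA box TATAAA (12.4%). The median GC content was 64.0% in the 8 promoters and 55.2% in all coding promoters. The shares over all promoters were not matched for it, for the motifs found or for those absent. The motifs were searched on both strands and were chosen after these sequences had been seen, and a match is not evidence of binding.

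In base composition the promoters differed widely. Spint1 and Spint2 had 26 and 24 CpG dinucleotides in 250 bases, Dsp 22 and Ap1m2 17. Epcam had 8 and Krt8 only 3, with an observed to expected CpG ratio of 0.143. The median was 17 CpG in the 9056 coding promoters with a start-site peak in all 4 lists and 2 in the 6509 with none. Krt8 had a peak within 1 kb of its start in every list and a CpG count close to that of promoters without one. No listed peak touched the 250 bases in which its CpG were counted, the nearest edge lying 701 to 888 bp from the start. Krt7 and Krt18, with 16 and 12 CpG, had no peak within 1 kb of their start in any list.

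By number of peaks, the 10 genes together had 24 in D209N and 28 in Flag at day 7, and 18 in D209N and 17 in Flag at day 3. They had a mean of 2.4 and 2.8 peaks per gene at day 7 in D209N and Flag, and 1.8 and 1.7 at day 3. All coding genes had 1.88 and 1.98 at day 7 and 1.33 and 1.65 at day 3 in the same arms. Bases under these peaks summed to 14.4 kb in D209N and 14.7 kb in Flag at day 7, and to 6.98 and 8.96 kb at day 3. Of the 30 regions, 14 (46.7%) were in all 4 lists, as were 39.4% of all regions. The farthest region counted lay 77.3 kb from its gene, so none was close to the 100 kb limit. None of the 30 was listed at day 3 in either arm and absent from both arms at day 7, whereas 13.9% of all regions were.

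**Figure D1:**
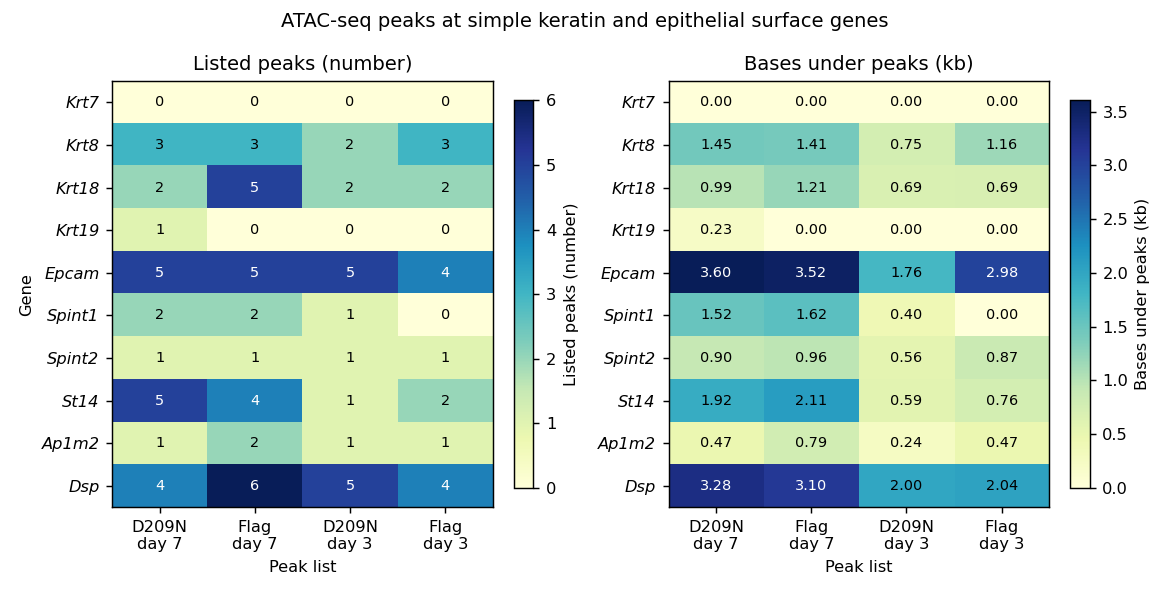
Number of listed peaks (left) and kilobases under them (right) at each gene (rows) in each of the 4 peak lists (columns). Summed over the lists Epcam and Dsp carried the most peaks, Krt7 had 0 in every list, and the bases under peaks were lowest or tied lowest in one of the day 3 lists at every gene.

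Of the keratins, Krt8 (chromosome 15, 101996711 to 102004342) had 3 regions. One lay inside the gene, 1.04 kb after the start, and had 605 bp under its peak in D209N and 673 bp in Flag at day 7, and 362 and 558 bp at day 3. A second lay 1.16 kb before the start, with 503 and 443 bp at day 7 and 389 and 351 bp at day 3 in D209N and Flag. Both were in every list, while the start base itself was under no peak and lay 701 to 888 bp from the nearest one. The third, 6.53 kb before the start, measured 341 bp in D209N and 297 bp in Flag at day 7, and at day 3 it was absent from D209N and measured 246 bp in Flag.

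Krt18 (chromosome 15, 102028216 to 102032026) is 23.9 kb from Krt8, and the pair lie head to head, each transcribed away from the other. No peak of any list touched Krt18 or the 1 kb at its ends. The nearest peak to it was 9.93 kb away in D209N and 2.45 kb in Flag at day 7, and 9.99 and 9.93 kb away at day 3. A region 10.2 kb before its start was in all 4 lists, with 518 bp in D209N and 392 bp in Flag at day 7 and 436 and 363 bp at day 3. Another one 24.1 kb after its start was also in all 4, with 473 and 441 bp at day 7 and 251 and 331 bp at day 3. The other 3 regions of Krt18 were in the Flag day 7 list alone and were narrow, at 197, 68 and 108 bp.

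Krt19 (chromosome 11, 100140810 to 100145926) had 1 peak in the whole series. It was 225 bp wide, 149 bp outside the upper gene end, and stood in the D209N day 7 list only. The nearest peak of the other lists lay 23.1 kb from the gene in Flag at day 7, 19 kb in D209N and 18.9 kb in Flag at day 3. Krt7 (chromosome 15, 101412403 to 101427806) lay 24 kb from the nearest peak in D209N and 23.8 kb in Flag at day 7, and 41.7 and 25.5 kb at day 3. Those peaks were nearer to an end of another coding gene. By this counting rule Krt8 and Krt18 had regions in every list, and Krt7 and Krt19 had at most 1. All regions of Krt18 lay outside the gene and beyond 1 kb of its ends. Krt18 and Krt7 thus both lacked a gene-end peak in every list, as did 37.0% of coding genes.

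Epcam (chromosome 17, 87635979 to 87651127) had 6 regions, of which 5 lay 22.5 to 77.3 kb before its start. The region inside the gene, 0.735 kb after the start, had 739 bp in D209N and 879 bp in Flag at day 7. At day 3 it had 43 bp in D209N and 684 bp in Flag, the largest arm difference in width among the 14 regions shared by those 2 lists. Only 0.38% of the peaks in the D209N day 3 list were narrower than those 43 bp. A region 22.5 kb before the start had 738 bp in D209N and 554 bp in Flag at day 7, and 150 and 716 bp at day 3. Both regions were narrowest in D209N at day 3, whereas at day 7 the one inside the gene was wider in Flag and the one before the start wider in D209N.

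The upstream regions of Epcam at 64.4 and 32.8 kb varied less. The first of them measured 625 bp in D209N and 671 bp in Flag at day 7, and 573 and 572 bp at day 3. The second one measured 1138 and 1144 bp at day 7 and 888 and 1009 bp at day 3. The region at 77.3 kb was listed in D209N on both days, at 364 bp on day 7 and 106 bp on day 3, and in no Flag list. The region at 26.1 kb, 268 bp wide, was in Flag day 7 only. Counted by peaks, Epcam hardly differed (5 and 5 at day 7, 5 in D209N and 4 in Flag at day 3), but it had 1760 bp under peaks in D209N day 3 against 2981 bp in Flag day 3. The whole D209N list at day 3 held 0.778 times the bases of the Flag list. Widths may also have been cut by a step that no source records.

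**Figure D2:**
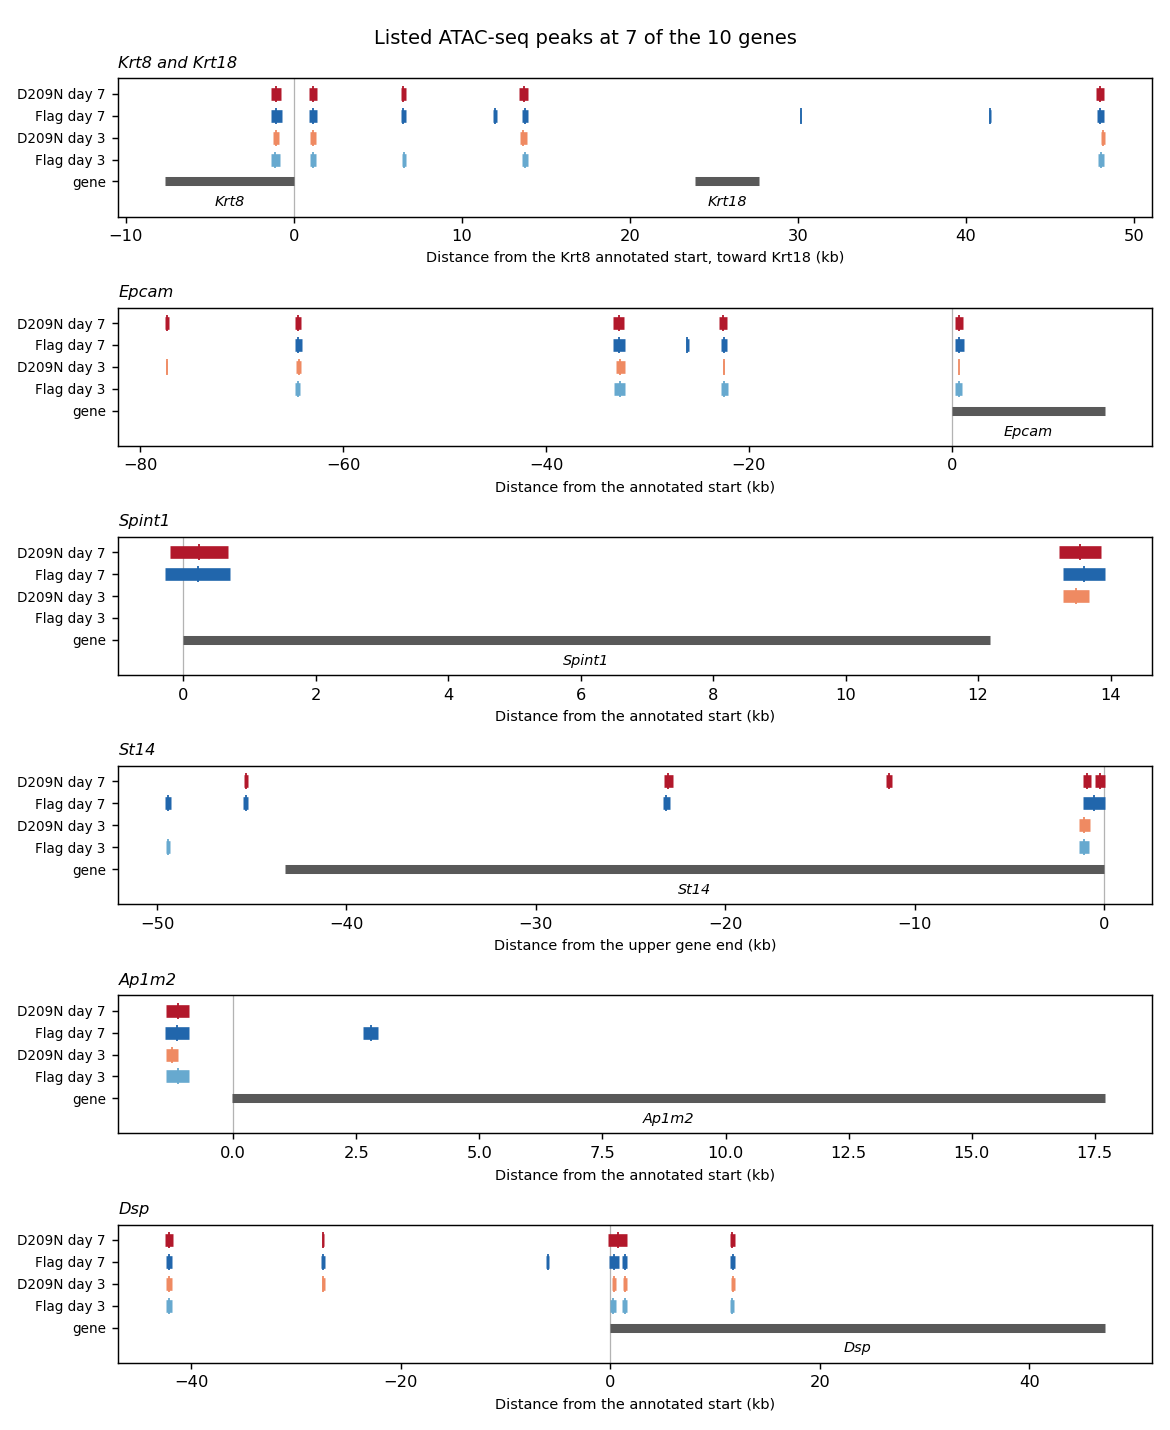
Position of each listed peak (bars to scale, with a thin tick at the centre) in the 4 lists at Krt8 with Krt18, Epcam, Spint1, St14, Ap1m2 and Dsp, as distance in kb from the annotated start, or from the upper gene end for St14. The grey bar is the gene. Spint1 has its start-site peak in both day 7 lists and in neither day 3 list, and the regions inside St14 away from its upper end stand in day 7 lists only.

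Spint1 (chromosome 2, 119237360 to 119249535) was the only one of the 8 genes with an annotated start whose start-site peak was in both day 7 lists and in neither day 3 list. A region over the start measured 868 bp in D209N and 971 bp in Flag at day 7. At day 3 the nearest peak to the start was 13279 bp away in D209N and 25645 bp in Flag. A second region 1.39 kb beyond the other gene end had 649 bp in D209N and 645 bp in Flag at day 7, and at day 3 it was in D209N only, at 401 bp. A gene-end peak at day 7 in both arms and at day 3 in neither was found at 3.88% of coding genes. Its relative Spint2 (chromosome 7, 29256330 to 29282059) had 1 region, over the start, in all 4 lists. This region had 904 bp in D209N and 959 bp in Flag at day 7, and 556 and 869 bp at day 3.

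St14 (chromosome 9, 31088590 to 31131811), whose protease product both inhibitors act on, had 5 peaks in D209N and 4 in Flag at day 7, and 1 in D209N and 2 in Flag at day 3. The region at its upper gene end was in all lists. It had 933 bp in 2 peaks in D209N and 1178 bp in 1 peak in Flag at day 7, and 587 and 520 bp at day 3. At day 7 the peaks reached the end itself, and at day 3 they stopped 744 bp short of it in D209N and 769 bp in Flag. A region inside the gene, 20.2 kb from the lower end, had 468 bp in D209N and 386 bp in Flag at day 7 and none at day 3. The same held for one 2.1 kb outside the lower end, at 224 and 242 bp. A second region inside the gene (295 bp) was in D209N day 7 only, and one 6.19 kb outside it was in Flag only, at 301 bp on day 7 and 240 bp on day 3.

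Ap1m2 (chromosome 9, 21294615 to 21312349) had a region 1.14 kb before its start in all lists, with 466 bp in D209N and 481 bp in Flag at day 7 and 241 and 468 bp at day 3. The edge of this peak was 1123 bp from the start in D209N at day 3 and 898 bp in each of the other lists. A region inside the gene, 2.79 kb after the start, was in Flag day 7 only (305 bp). The 4 E-boxes in the sequence shown above lay in the stretch between the start and this peak, which no listed peak touched.

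Dsp (chromosome 13, 38151294 to 38198577) had a region at its start in all lists. It was a single peak of 1794 bp in D209N at day 7, and 2 peaks with 1376 bp in Flag at day 7, 789 bp in D209N and 1082 bp in Flag at day 3. A region 42.1 kb before the start and one 11.7 kb after it were also in all lists. The region 42.1 kb away measured 704 bp in D209N and 590 bp in Flag at day 7 and 536 and 594 bp at day 3. The region inside the gene measured 510 and 475 bp at day 7 and 394 and 360 bp at day 3. A region 27.4 kb before the start had 268 bp in D209N and 309 bp in Flag at day 7, and at day 3 it had 277 bp in D209N and was absent from Flag. One of 349 bp at 5.97 kb was in Flag day 7 only.

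The day 7 comparison of the arms asks how D209N cells differed late in the course. Among the 30 regions in either list, 3 (10.0%) were in D209N only and 7 (23.3%) in Flag only, beside 11.7% and 15.6% of all regions. The 3 in D209N only were at Krt19, Epcam and St14, and the 7 in Flag only were at Krt18, Epcam, St14, Ap1m2 and Dsp. St14 and Krt19 had more peaks in D209N, where 11.5% of coding genes did, and Krt18, Ap1m2 and Dsp had fewer, where 18.4% did. At St14 this came from 1 region listed as 2 peaks in D209N, and merged regions numbered 4 in each arm. A gene-end peak was present at 8 of the 10 genes in D209N and 7 in Flag, and differed at Krt19 alone (0.973% of coding genes had it in D209N only and 2.02% in Flag only). Of the 20 shared regions 10 were wider in D209N, with a median width ratio of 1.0, and 50.8% of all shared regions were. With every list cut to its 29189 widest peaks, the 10 genes had 20 peaks in D209N and 19 in Flag, so that the order of the arms turned.

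At day 3 the same comparison gave 3 regions in D209N only (15.8% of 19) and 2 in Flag only (10.5%), beside 7.30% and 25.8% of all regions. The 3 in D209N only were at Epcam, Spint1 and Dsp, and the 2 in Flag only at Krt8 and St14. Peaks were more numerous in D209N at Epcam, Spint1 and Dsp (5.9% of coding genes) and fewer at Krt8 and St14 (25.1%). Gene-end peaks stood at 5 genes in D209N and 6 in Flag, with Ap1m2 in Flag only by the peak edge given above, as at 5.03% of coding genes, while 0.809% had one in D209N only. With a 2 kb window the order turned, to 7 genes in D209N and 6 in Flag. Of the 14 shared regions 5 (35.7%) were wider in D209N, as were 31.1% of all shared regions. Among peaks wider than their list's median the 10 genes had 5 in D209N and 10 in Flag, the opposite order to all peaks. Bases under peaks at the 10 genes in D209N were 0.779 times those in Flag, and over the whole lists 0.778 times.

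Between the days, D209N cells had 6 regions at day 7 only (26.1% of 23) and 0 at day 3 only, beside 35.9% and 10.3% of all regions. The 6 were at Krt8, Krt19, Spint1 and, with 3, at St14. Krt8, Krt19, Spint1 and St14 had more peaks at day 7 (34.6% of coding genes did) and Dsp had fewer (7.10%), as its 2 start-site peaks of day 3 stood as 1 wide peak at day 7. Gene-end peaks were gained at Krt19, Spint1 and Ap1m2, where 9.02% of coding genes gained one and 0.32% lost one. With a 2 kb window the number of genes was 8 at day 7 and 7 at day 3, since at day 3 a peak lay 1107 bp from the Ap1m2 end and another 1104 bp from the end of Spint1 away from its start. Of the 17 regions shared by both days 16 (94.1%) were wider at day 7, against 77.8% of all shared regions, with a median width ratio of 1.62 at the 10 genes and 1.23 overall. Bases under peaks were 2.06 times those of day 3, and over the whole lists 1.51 times.

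In Flag cells 11 regions (40.7% of 27) were listed at day 7 only and 0 at day 3 only, beside 28.6% and 16.3% of all regions. They belonged to Krt18 (3), Spint1 (2), St14 (2), Dsp (2), Epcam (1) and Ap1m2 (1). These 6 genes also had more peaks at day 7, as had 29.7% of coding genes, and none of the 10 had fewer, as 11.8% had. A gene-end peak was gained at Spint1 alone, and 6.23% of coding genes gained and 0.704% lost one. Of 16 shared regions 14 (87.5%) were wider at day 7, against 66.6% of all, with median ratios of 1.21 and 1.10. Bases under peaks were 1.64 times those of day 3, and 1.19 times over the whole lists.

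**Figure D3:**
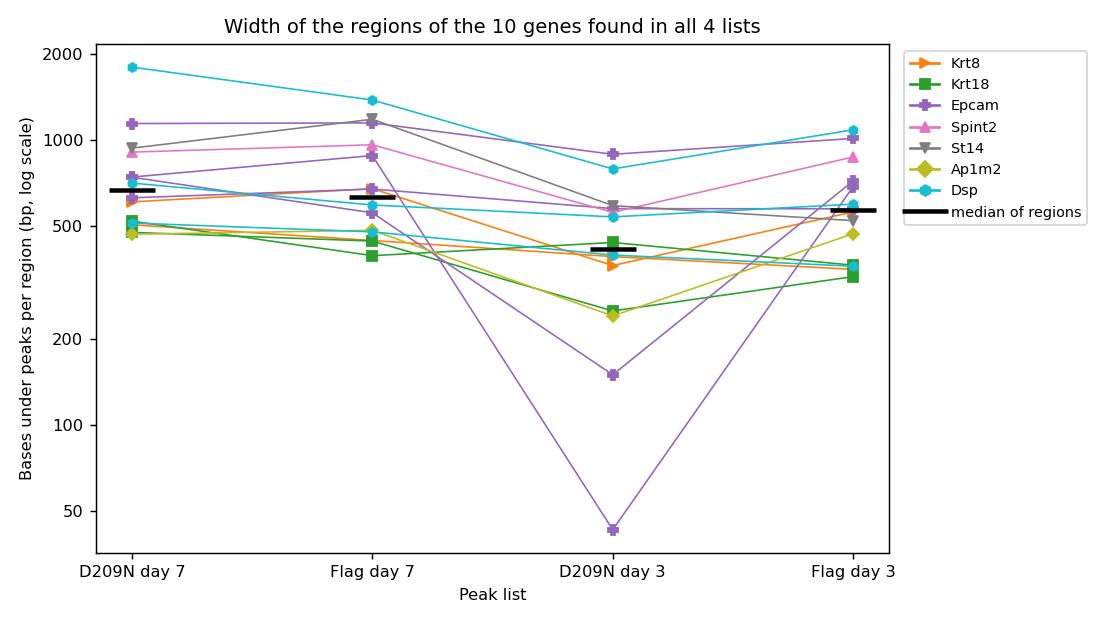
Bases under peaks (log scale) in each of the 14 regions of the 10 genes that were in all 4 lists, with 1 line per region, coloured and marked by gene, and a black bar at the median of each list. Medians were 664.5 and 630.5 bp in D209N and Flag at day 7 and 415 and 565 bp at day 3, and the region inside Epcam stands at 43 bp in D209N day 3.

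Among those 14 regions the widest value was always at day 7, in D209N at 7 and in Flag at 7, and the narrowest always at day 3, in D209N at 9 and in Flag at 5. Over the 21785 regions of the series in all 4 lists, D209N day 7 was the widest in 38.2% and Flag day 7 in 34.9%, and D209N day 3 was the narrowest in 55.2% and Flag day 3 in 22.9%. The regions of the 10 genes in 1 list only had a median width of 246.5 bp. For the regions in all 4 lists the median was 688.5 bp when the largest of the 4 widths of each region was taken. These are unlike measures, and by single list the medians of the latter regions were 415 to 664.5 bp. The same was not computed over all regions of the series.

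The peaks near a start did not always lie over it. At day 7, 6 of the 8 genes with an annotated start had a peak within 1 kb of it in each arm, and in 3 of those 6 (Spint1, Spint2 and Dsp) the peak covered the start base. Over all coding genes with a peak within 1 kb, 90.6% in D209N and 90.4% in Flag had the base covered. At Krt8, Epcam and Ap1m2 the nearest peak edge at day 7 was 751, 342 and 898 bp away in D209N and 701, 296 and 898 bp in Flag. At day 3 only Spint2 had its start base covered, out of 4 genes with a peak within 1 kb in D209N and 5 in Flag. Over all coding genes with such a peak 86.3% and 88.8% had it covered. The nearest edge at Dsp was then 170 bp away in D209N and 16 bp in Flag. It was 685 and 365 bp away at Epcam, 888 and 814 bp at Krt8, and 898 bp at Ap1m2 in Flag.

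Genes of related function were read for the same measure. Among 11 other keratins, which include those of stratified epithelia and skin, a gene-end peak stood at 3 genes in each arm at day 7 and at 2 in each arm at day 3. Krt1, a keratin of the upper epidermis, had it at day 7 only in both arms, which is the Spint1 pattern. Of 8 desmosome and plakin genes 7 had one in each arm at day 7, and 5 in D209N and 7 in Flag at day 3. Pkp2 and Ppl, a desmosomal plaque protein and a plakin, and Bspry lacked it in D209N day 3 alone, as Ap1m2 did and as did 4.29% of coding genes. Of 11 genes for surface proteins, proteases and trafficking, 7 had one in D209N and 6 in Flag at day 7, and 4 and 5 at day 3. Muc1, a surface mucin, shared with Krt19 the pattern of D209N day 7 only, which 0.699% of coding genes had. Over all coding genes the shares were 60.4% and 61.5% at day 7 and 51.7% and 55.9% at day 3 in D209N and Flag.

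**Figure D4:**
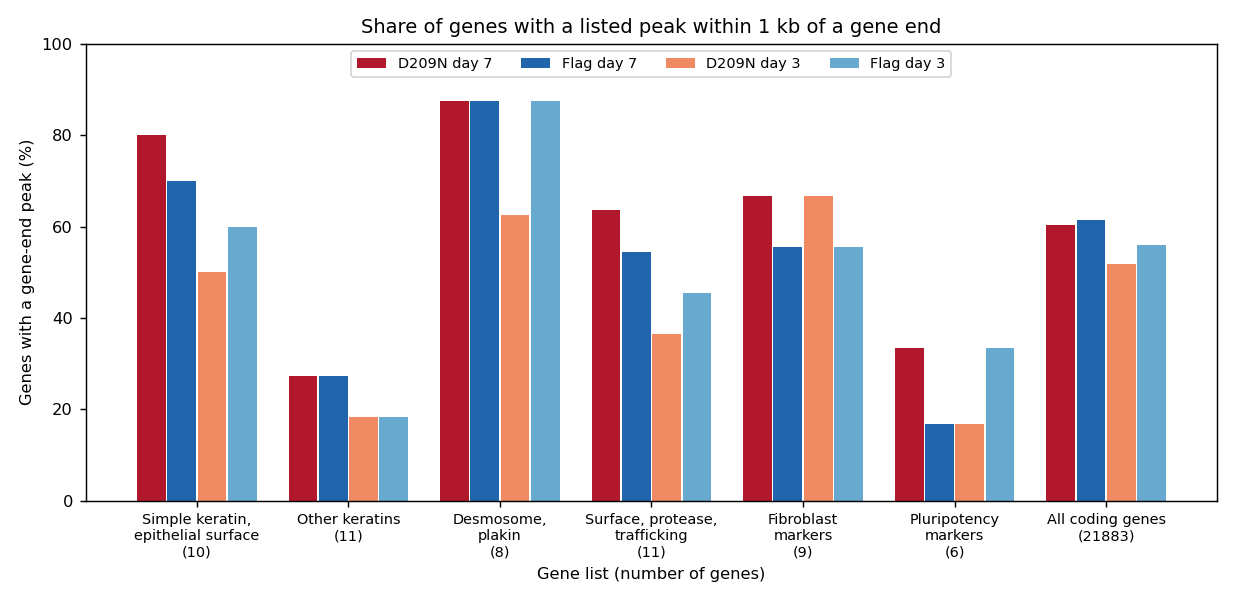
Percentage of genes in each list (number of genes in brackets) with a peak within 1 kb of either gene end, in the 4 peak lists. The simple keratin and epithelial surface genes stand at 80.0% in D209N and 70.0% in Flag at day 7. At day 3 they stand at 50.0% and 60.0%, and other keratins stay at or below 27.3% throughout. The first list mixes keratins with other genes, so this is not a contrast of simple with other keratins. Of its keratins, Krt8 had such a peak in every list, Krt19 in D209N day 7 only, and Krt7 and Krt18 in none.

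Markers of other cells were listed beside these. Of 9 fibroblast genes 6 had a gene-end peak in D209N and 5 in Flag on each day, with Col1a1, Col1a2, Vim, Pdgfrb and Twist1 in all lists and Pdgfra, Thy1 and Prrx1 in none. Of 6 pluripotency genes 2 had one in D209N and 1 in Flag at day 7, and 1 and 2 at day 3. Of 5 keratinocyte genes 2 had one in each arm at day 7 and 1 in each arm at day 3. These were Krt10 in all lists and Krt1 at day 7, while Krt5, Krt14 and Trp63 had none in any list. Trophoblast genes had 2 of 5 in each arm at day 7, and 0 in D209N and 1 in Flag at day 3, and endoderm genes 2 of 5 in each arm at day 7, and 1 and 0 at day 3. Endothelial genes had 2 of 5 and macrophage genes 1 of 5 in every list. The part of a change in cell types in the differences between days was not tested.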

How the data were processed

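ATAC-seq peak lists of 4 conditions were used. Per the submitters' processing notes, CASAVA, Bowtie2 2.3.2 and the builds mm10 and GRCm38.p5 were used. The peak caller, its threshold, any shift for transposase insertion, and whether a list rests on 1 or both libraries of its condition, are not given in the sources used. The authors deposited chromosome, start, end and name, with no score. Every name carries rep1, the narrowest intervals are 1 or 2 bp, and 294 to 360 intervals per list share their name with another. The deposited peaks may thus have been cut by a later step that no source records, and widths carry that limit. Lists were matched to groups by arm and day in the peak names, and held 40452 (D209N) and 42439 (Flag) peaks at day 7 and 29189 and 36375 at day 3, outside the mitochondrial genome. Their number sets how many peaks any gene can have.

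Genes and promoters came from RefSeq GRCm38.p6, where 8 of the 10 genes had a promoter sequence. Exons were not used here. Overlap means at least 1 bp, and a gene-end peak touches the 1 kb on either side of a gene end. Python 3.11.15, numpy 2.4.6 and pandas 2.3.3 were used. Tested on simulated peaks for the assignment step run on 21883 genes, 200 of 200 planted genes were recovered. The planted genes were all long and far from other coding genes. The choice between close neighbours, such as Krt8 and Krt18, was therefore not tried. The genes, gene lists and rules were chosen with earlier results of these data known. All 10 genes are named, and from other lists up to 4 genes whose gene-end peak differed between lists or matched the pattern of 1 of the 10, besides markers of cell types. Alternatives changed the distance, window, peak width, list length and overlap.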

Additional observations from a re-analysis of the deposited data

Results flagged for a closer look

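At 2 genes the arms differed in opposite directions on the 2 days, which was not tested, since each condition has 1 list. St14 had 1 more peak in D209N than in Flag at day 7 (a difference of 1) and 1 fewer at day 3 (-1). Dsp had 2 fewer in D209N at day 7 (-2) and 1 more at day 3 (1). Within the arms, Dsp had 1 fewer peak at day 7 than at day 3 in D209N (-1) and 2 more in Flag (2). Counted as merged regions, Dsp had 4 in D209N and 5 in Flag at day 7 and 4 and 3 at day 3, and St14 had 4 and 4 at day 7 and 1 and 2 at day 3. Opposite arm differences in peak number occurred at 1498 coding genes (6.85%).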

How the results depend on the processing

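Of 36 recomputed values, 17 kept their direction within 1.5 times, 14 moved further and 5 changed sign. The gain of peaks at day 7 kept its direction under every alternative, and none of the 4 arm differences did. For D209N minus Flag at day 7, the difference of -4 peaks became 0 with peaks overlapping the gene or wider than their list's median, and 1 with every list cut to its 29189 widest peaks. At day 3 the difference of 1 became -1 within 20 kb, 0 inside the gene, -5 among wide peaks and 3 at equal length. Day 7 minus day 3 in D209N, 6 peaks, became 3 inside the gene and 2 at equal length. In Flag, 11 became 3 inside the gene, 4 among wide peaks and 4 at equal length. In gene-end peaks, D209N minus Flag at day 7 was 1, and 0 at annotated starts, -1 among wide peaks and 0 at equal length. At day 3 it was -1, and 1 with a 2 kb window and -3 among wide peaks. Day 7 minus day 3, 3 genes in D209N, became 1 with a 2 kb window, and 1 in Flag became 2 among wide peaks. The cause was not tested. Asking for 50% of the shorter peak in common changed none of the 4 counts of regions in 1 list. No paired analysis was possible because each condition has 1 list without replicate columns, and no replicate could be left out. Unknown depth limits every absence.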
